A study of Mus musculus with 5 samples.

Results

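Fibrillar collagen genes encode the chains of the collagens that assemble into fibrils. The 8 genes described here are *Col1a1*, *Col1a2*, *Col3a1*, *Col5a1*, *Col5a2*, *Col5a3*, *Col11a1* and *Col24a1*, out of 1355 genes in the authors' table of genes that differ between *Irf8*-OE and control bone marrow-derived dendritic cells (BMDCs). They were picked by name from that table, which holds only genes already called for this difference, so all values below that compare the groups are descriptions and carry no test. *Col2a1*, *Col11a2* and *Col27a1*, the other 3 genes of the family, are not listed and were not analysed here.

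RNA-seq covered 3 *Irf8*-OE and 2 control cultures, each counted as 1 sample. *Irf8*-OE mice carried an *Irf8* transgene behind a CAG promoter and a loxP-flanked stop (*Irf8* CAG-LSL) together with *Itgax* Cre, which acts in cells that express CD11c. The study gives the controls as *Irf8* CAG-LSL without Cre, and the sample labels give them as wild type. All mice are given as male, 8 weeks old and on the C57BL/6 background. Marrow from tibias and femurs was grown with 5 ng/ml GM-CSF and 200 ng/ml Flt3L, non-adherent cells were replated on day 9 and collected on days 15 to 16, and the labels of all 5 samples name TNF-α stimulation, for which 20 ng/ml is given. Nothing states whether each culture came from its own mouse, so the spread between samples may be technical.

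Collagen chains wind around each other in groups of 3 to form a triple helix, and each turn of the helix needs a glycine, so glycine recurs at regular steps along the chain. Type I collagen combines *Col1a1* and *Col1a2* chains, with more of the former than of the latter, and is the main collagen of bone, tendon and scar. Type III collagen is made of *Col3a1* chains alone and shares fibrils with type I in vessels and soft tissue, while type V and type XI collagens sit inside such fibrils and limit their width. Fibroblasts, osteoblasts and marrow stromal cells are the known makers of these proteins, and dendritic cells are not known as a main source.

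The glycine repeat can be read directly in the coding sequence, and it is shown here because it is what the 8 genes have in common as a family. In the principal transcripts of GENCODE vM21 (GRCm38), the longest unbroken run of codon triplets that start with a glycine codon (GGN) was 338 triplets in *Col1a1*, 339 in *Col1a2*, 344 in *Col3a1*, 338 in *Col5a1*, 339 in *Col5a2*, 337 in *Col5a3* and 338 in *Col11a1*. In *Col24a1* it was 216 triplets, the shortest of the 8. Within these runs the exons follow the repeat. All 41 whole exons inside the run of *Col1a1* had a length divisible by 9 bases, and 21 of them were 54 bases long. The same held for all exons inside the run in the other 7 genes, from 35 of 35 in *Col24a1* to 48 of 48 in *Col5a3* and *Col11a1*.

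Exon 8 of the partner chains of type I collagen is one of these 54-base exons, with chr11:94939904-94939957 in *Col1a1* and chr6:4515481-4515534 in *Col1a2*, both on the plus strand of GRCm38. Exon 15 of *Col5a1* (chr2:27965251-27965304, plus strand) and of *Col5a3* (chr9:20801068-20801121, minus strand) is shown beside them as a pair of type V chains. The sequences run 5′ to 3′ in the direction of the gene. Capitals mark the glycine codon that starts each of the 6 codon triplets. Exon 8 of *Col1a1* and exon 15 of *Col5a1* each hold a further glycine codon inside a triplet, in small letters.
Col1a1 exon 8: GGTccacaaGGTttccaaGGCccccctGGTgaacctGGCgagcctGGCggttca
Col1a2 exon 8: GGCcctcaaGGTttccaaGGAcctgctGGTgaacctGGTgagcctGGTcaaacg
Col5a1 exon 15: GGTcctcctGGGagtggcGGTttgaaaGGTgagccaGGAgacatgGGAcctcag
Col5a3 exon 15: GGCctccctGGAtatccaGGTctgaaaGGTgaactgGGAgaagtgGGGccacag
The type I exons had 42 of 54 bases in common, and the type V exons had 37 of 54. How reads that match more than 1 gene were counted is not given in the sources used here.

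The 8 genes lie on 6 chromosomes, and their starts and ends in the authors' table are those of GENCODE vM21. *Col1a1* lies on chromosome 11 (94936224 to 94953042, plus strand), *Col1a2* on chromosome 6 (4504814 to 4541544, plus strand), *Col5a1* on chromosome 2 (27886425 to 28039514, plus strand) and *Col5a3* on chromosome 9 (20770050 to 20815067, minus strand). *Col11a1* (114030540 to 114220718) and *Col24a1* (145292472 to 145552011) are both on the plus strand of chromosome 3, with starts 31.3 Mb apart. *Col3a1* (45311538 to 45349706, plus strand) and *Col5a2* (45374321 to 45503282, minus strand) are neighbours on chromosome 1, end to end with 24614 bases and no annotated gene between them. Exons of *Col5a1* overlap those of the noncoding genes *2810430I11Rik* and *Gm13372* on the other strand, and an exon of *Col3a1* overlaps the miRNA gene *Gm47302*. *Gm47302* is on the same strand as *Col3a1*, so its reads could be part of the values of *Col3a1* whether or not the counting used strand. Whether it did is not given in the sources used here. Reads of the noncoding genes on the other strand could therefore be part of the values of *Col5a1*.

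The values are normalized counts, that is, reads scaled by a size factor for the sample with no division by length. They were whole multiples of 1 step in every sample, which gave back the reads. Reads on the listed genes numbered 646123 to 689416 per *Irf8*-OE sample, and 901597 and 1062127 in the controls. The depth of the whole libraries is unknown. *Irf8* itself had 7141, 6519 and 6021 normalized counts in *Irf8*-OE and 2835 and 2747 in the controls. *Xist*, the RNA of the inactive X chromosome, had 10772 to 13476 normalized counts in *Irf8*-OE and at most 1.12 in the controls, and 4 Y-linked genes had 0 in *Irf8*-OE and 484 to 1385 in the controls, which goes against the male label of the *Irf8*-OE samples. Genotype and this sex-linked difference separate the 5 samples identically and cannot be told apart in any value below, and no value can be given without the samples concerned because they are the whole *Irf8*-OE group. The dendritic cell markers *Itgax*, *Batf3* and *Clec9a* are not listed, and of 13 markers 3 are listed, *Itgae*, *Cd24a* and *Irf8*, the last of which is the transgene and checks no cell type. The other 2 went opposite ways, with log2 fold changes of 1.62 for *Itgae* and -1.38 for *Cd24a*, so the labelled cell type could not be checked from this table. The mast cell protease gene *Cpa3* was the most abundant listed gene in the controls, with 17.3% and 17.6% of their listed reads.

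All 8 fibrillar collagen genes were higher in *Irf8*-OE than in control BMDCs, and in none of them did the groups overlap. Summed over the 8 genes, the level was 10825, 10084 and 9448 normalized counts in *Irf8*-OE and 2474 and 2546 in the controls. The largest differences were those of *Col1a1* and *Col3a1*, and the smallest were those of *Col5a2* and *Col24a1*. By limma with Benjamini-Hochberg adjustment, 8 of 8 were called (adjusted p-value under 0.05, log2 fold change beyond 1 in either direction), all as higher. Of all listed genes 99.1% met both criteria, 58.1% in the higher direction, and in 100% the groups did not overlap (58.8% in the higher direction), as follows from the way the table was made. The median log2 fold change of the 8 genes was 1.82, that of all listed genes 1.14, and that of the 797 listed genes above 0 was 1.81. Of the 8 listed genes of other collagen types, 7 were called higher and 1 lower, with a median of 1.71.

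**Figure D1:**
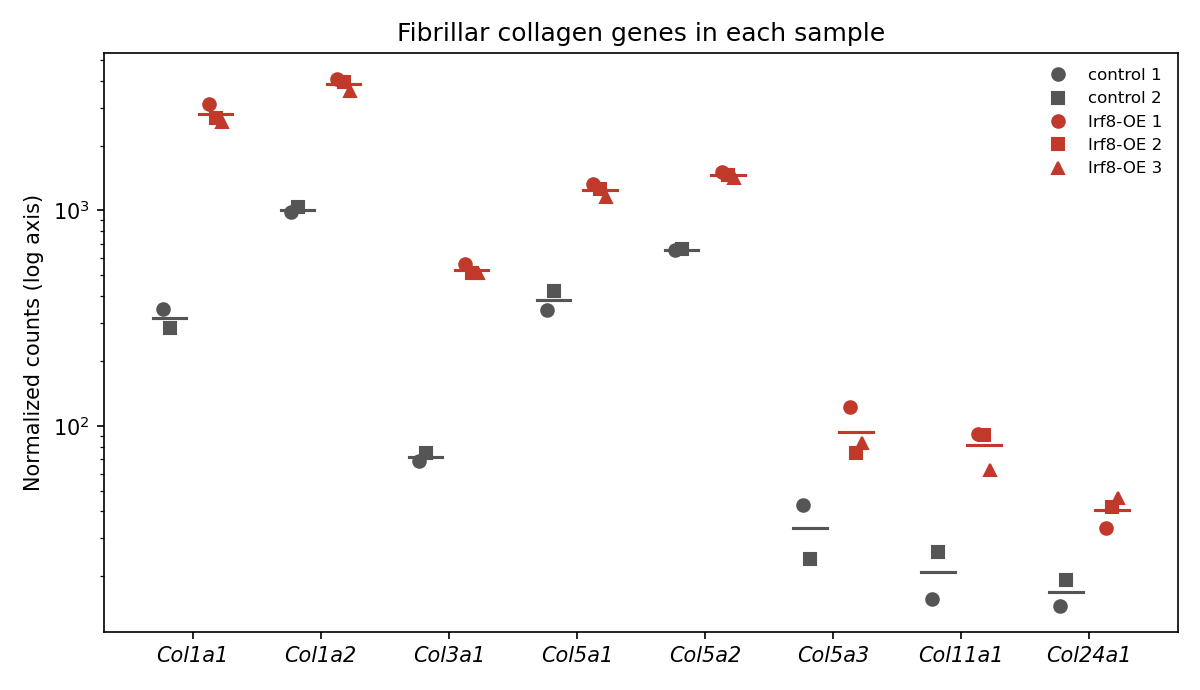
Normalized counts (log axis) of the 8 fibrillar collagen genes in each of the 5 samples, with controls in grey, *Irf8*-OE in red and a line at each group's mean. The lowest *Irf8*-OE sample lies above the highest control for every gene, by a factor of 7.38 for *Col1a1* and of 1.75 for *Col24a1*.

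*Col1a1* encodes the more abundant chain of type I collagen. Its normalized counts were 3118, 2684 and 2579 in *Irf8*-OE and 350 and 286 in the controls. The lowest *Irf8*-OE sample was far above the higher control, and the means were 2794 ± 286 (SD, n = 3) and 318 ± 44.9 (SD, n = 2), a ratio of 8.79. Its log2 fold change, on the scale log2(normalized counts + 1) used for all fold changes here, was 3.13 (standard error 0.12). Among the listed genes above 0 it stood at rank 122 of 797.

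*Col1a2* encodes the partner chain of type I collagen and was the most abundant of the 8 genes in both groups, in normalized counts and per kilobase of principal transcript. It had 4065, 3958 and 3598 normalized counts in *Irf8*-OE and 984 and 1033 in the controls. The *Irf8*-OE samples were again all above the controls, with means of 3873 ± 245 (SD, n = 3) and 1009 ± 34.0 (SD, n = 2). The ratio of the means was 3.84 and the log2 fold change 1.94 (standard error 0.07), smaller than for *Col1a1*.

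*Col3a1* encodes the chain of type III collagen. It had 562, 514 and 514 normalized counts in *Irf8*-OE and 68.6 and 74.8 in the controls. The samples of a group lay close together, with means of 530 ± 27.6 (SD, n = 3) and 71.7 ± 4.45 (SD, n = 2), a ratio of 7.39 and a log2 fold change of 2.87 (standard error 0.10). For its neighbour *Col5a2* the log2 fold change was 1.15.

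*Col5a1* encodes the chain found in nearly all forms of type V collagen, which starts fibrils of type I collagen. It had 1330, 1260 and 1150 normalized counts in *Irf8*-OE and 345 and 421 in the controls. The means were 1247 ± 91.0 (SD, n = 3) and 383 ± 53.9 (SD, n = 2), and the log2 fold change was 1.70 (standard error 0.11). The 2 controls differed more from each other for this gene than the *Irf8*-OE samples did relative to their mean, with coefficients of variation of 14.1% and 7.30%.

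*Col5a2*, the partner of *Col5a1* in type V collagen, had the smallest log2 fold change of the 8 genes, 1.15 (standard error 0.06). It had 1503, 1461 and 1415 normalized counts in *Irf8*-OE and 653 and 662 in the controls. The groups did not overlap and had the smallest relative spread of the 8 genes, with means of 1460 ± 43.9 (SD, n = 3) and 658 ± 6.48 (SD, n = 2). The table's threshold is a log2 fold change of 1, so *Col5a2* and *Col24a1* at 1.22 are the members just inside it, and genes just outside it are not analysed here.

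*Col5a3*, *Col11a1* and *Col24a1* encode minor chains and had far fewer reads. *Col5a3*, another type V chain, had 122, 74.7 and 83.4 normalized counts in *Irf8*-OE and 42.7 and 23.99 in the controls, with 38 and 25 reads behind the control values. *Col11a1*, a chain of type XI collagen that is best known from cartilage, had 92.0, 90.6 and 62.3 against 15.7 and 25.9, with 14 and 27 control reads. *Col24a1*, the chain of type XXIV collagen, which has been described in developing bone, had 33.5, 42.0 and 46.2 against 14.6 and 19.2, with 13 and 20 control reads. The 3 genes were higher in every *Irf8*-OE sample than in either control, but the spread within a group was wide, with coefficients of variation of 15.9% to 26.8% in *Irf8*-OE and 19.2% to 39.7% in the controls. For *Col24a1*, counting error alone would give about 15.4% in *Irf8*-OE and 24.6% in the controls. For the other 2 genes the observed spread was wider than counting error. *Col5a3* had 26.8% and 39.7% against about 10.2% and 17.8%. *Col11a1* had 20.5% and 34.6% against about 10.8% and 22.1%. The log2 fold changes were 1.48 (standard error 0.32), 1.94 (standard error 0.30) and 1.22 (standard error 0.27). That of *Col24a1* fell to 0.61, below the threshold, after quantile normalization, and to 0.91 with a pseudocount of 10.

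**Figure D2:**
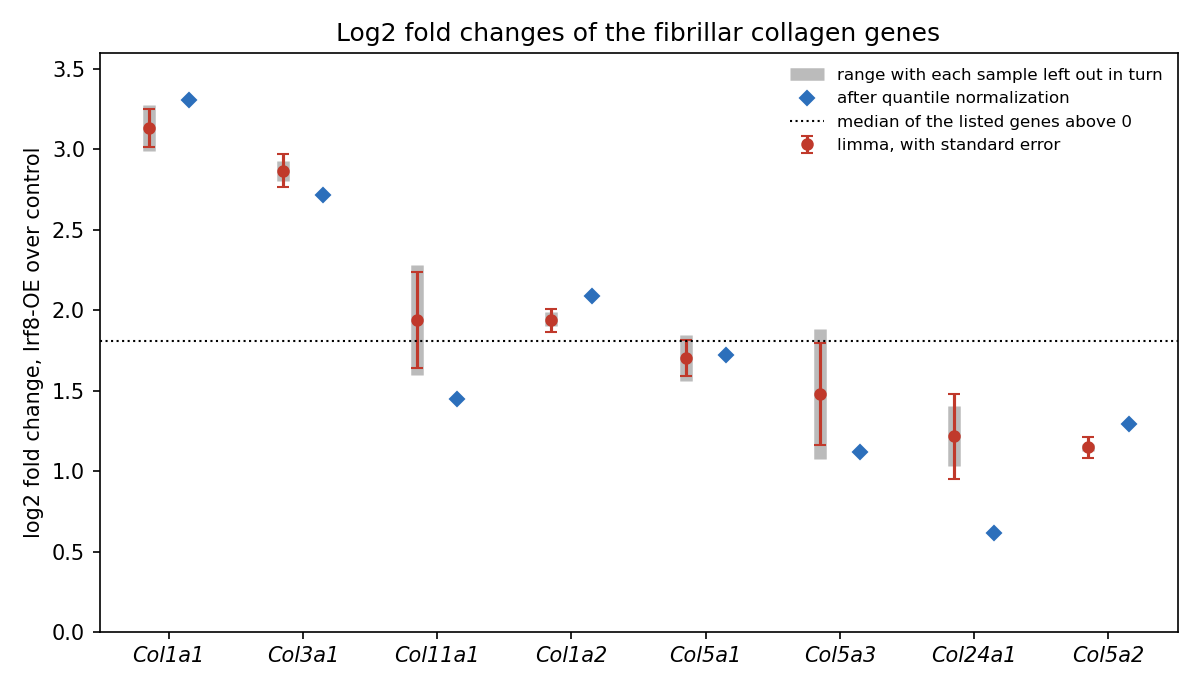
Log2 fold changes of the 8 genes (red points, with standard errors), their range with each sample left out in turn (grey bars) and their values after quantile normalization (blue diamonds). The dotted line is the median of the listed genes above 0, 1.81, from the fit without quantile normalization. *Col1a1* and *Col3a1* lie far above that line in both analyses, and *Col24a1* has the lowest value after quantile normalization, 0.61.

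Partner chains of the same trimer did not differ between the groups by the same factor. The ratio of 2 chains within a sample does not depend on that sample's size factor. Every listed gene separates the groups, so ratios of 2 listed genes may often separate them too. How many such ratios do so was not counted, and separation is not shown to be particular to partner chains. In type I collagen, the ratio of *Col1a1* to *Col1a2* normalized counts was 0.767, 0.678 and 0.717 in *Irf8*-OE and 0.355 and 0.277 in the controls. The *Irf8*-OE samples were all above both controls, and the mean ratio was 2.28 times as high, a difference of 1.20 on the log2 scale. In reads, *Col1a1* made up 40.4% to 43.4% of the reads on both chains in *Irf8*-OE and 26.2% (95% Wilson interval 23.8% to 28.8%) and 21.7% (19.6% to 23.9%) in the 2 controls. These intervals cover counting error only. When single samples were left out, the log2 difference of the ratio lay between 1.02 and 1.37.

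How many *Col1a1* transcripts there were for each *Col1a2* transcript depends on the length by which the counts are divided. Per kilobase of the principal transcript (5930 bases for *Col1a1* and 5348 for *Col1a2*) the *Irf8*-OE ratio was 0.650 ± 0.040 (SD, n = 3) and the control ratio 0.285 ± 0.050 (SD, n = 2), so that *Col1a2* was the more abundant chain in both groups. Per kilobase of the gene length in the authors' table (6563 and 12426 bases) the mean ratio was 1.36 in *Irf8*-OE and 0.598 in the controls, which puts *Col1a1* above *Col1a2* in *Irf8*-OE. The factor between the groups is the same under both lengths.

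In type V collagen, the ratio of *Col5a1* to *Col5a2* normalized counts was 0.885, 0.863 and 0.813 in *Irf8*-OE and 0.528 and 0.636 in the controls. The groups did not overlap here either, but the difference was smaller than for type I, with a mean ratio 1.47 times as high and 0.56 on the log2 scale. *Col5a1* made up 44.8% to 47.0% of the reads on both chains in *Irf8*-OE, and 34.6% (95% Wilson interval 31.5% to 37.8%) and 38.9% (36.1% to 41.8%) in the controls. Per kilobase of principal transcript, *Col5a2* exceeded *Col5a1* in every sample, with ratios of 0.673 ± 0.029 (SD, n = 3) and 0.459 ± 0.060 (SD, n = 2). Per kilobase of the gene length in the authors' table the mean ratios were 0.964 in *Irf8*-OE and 0.658 in the controls. The size of the excess of *Col5a2* thus depends on the length used.

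The minor type V chain did not separate the groups in this way. The ratio of *Col5a3* to *Col5a1* normalized counts was 0.0915, 0.0593 and 0.0725 in *Irf8*-OE and 0.124 and 0.0569 in the controls. The groups overlapped, and the log2 difference of -0.22 turned to 0.32 without the first control and was -0.77 without the second. That difference was -0.61 after quantile normalization and -0.42 with a pseudocount of 10. *Col11a1* chains are known to combine with *Col5a2* chains in mixed type V and XI trimers. That ratio was 0.0612, 0.0620 and 0.0440 in *Irf8*-OE and 0.0241 and 0.0391 in the controls, without overlap. Its log2 difference was 0.79, and it was 0.46 without the first control, 0.44 with a pseudocount of 10 and 0.16 after quantile normalization.

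**Figure D3:**
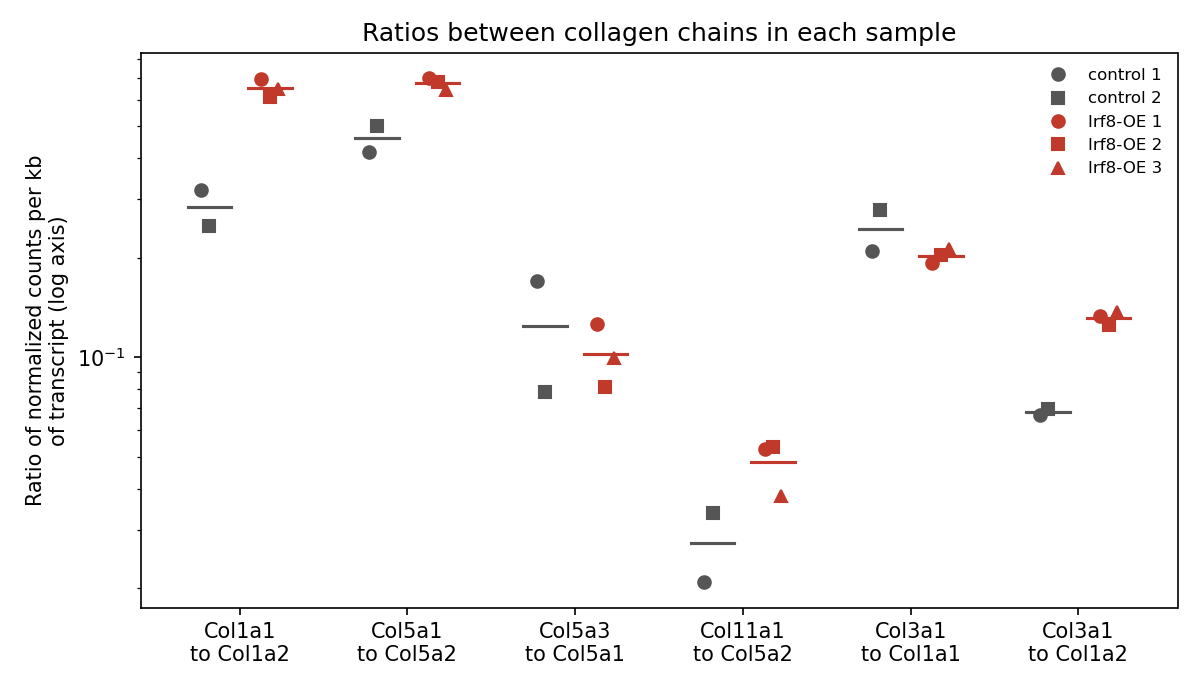
Ratios between collagen chains in each sample, as normalized counts per kilobase of principal transcript (log axis), with controls in grey, *Irf8*-OE in red and a line at each mean. The *Irf8*-OE samples lie above both controls for *Col1a1* to *Col1a2*, *Col5a1* to *Col5a2*, *Col11a1* to *Col5a2* and *Col3a1* to *Col1a2*, and the groups overlap for *Col5a3* to *Col5a1* and *Col3a1* to *Col1a1*.

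Type III and type I collagen share fibrils, and *Col3a1* was compared with both type I chains. The ratio of *Col3a1* to *Col1a1* normalized counts was 0.180, 0.191 and 0.199 in *Irf8*-OE and 0.196 and 0.262 in the controls, so the groups overlapped. The log2 difference was -0.27, with -0.060 without the second control, -0.47 without the first and -0.59 after quantile normalization. The ratio of *Col3a1* to *Col1a2*, by contrast, was 0.138, 0.130 and 0.143 in *Irf8*-OE and 0.0696 and 0.0725 in the controls, a mean ratio 1.93 times as high.

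The share of each chain in the fibrillar collagen transcripts was taken next. Per kilobase of principal transcript, *Col1a1* held 27.8% ± 1.13 (SD, n = 3) of the summed level of the 8 genes in *Irf8*-OE, against 13.1% ± 2.04 (SD, n = 2). *Col3a1* held 5.64% ± 0.20 and 3.14% ± 0.15. The share of *Col5a2* was lower in *Irf8*-OE, with 13.1% ± 0.49 against 24.2% ± 0.13. *Col1a2* held the largest share in every sample, 42.0% to 43.9% in *Irf8*-OE and 45.3% and 46.5% in the controls. That order depends on the length used. Per kilobase of the gene length in the authors' table, the *Irf8*-OE mean was 426 for *Col1a1* and 312 for *Col1a2*. The control means were 48.4 and 81.2. *Col5a3*, *Col11a1* and *Col24a1* each held at most 1.72% in every sample. These shares add up to 100%, so a higher share of one chain lowers the others.

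**Figure D4:**
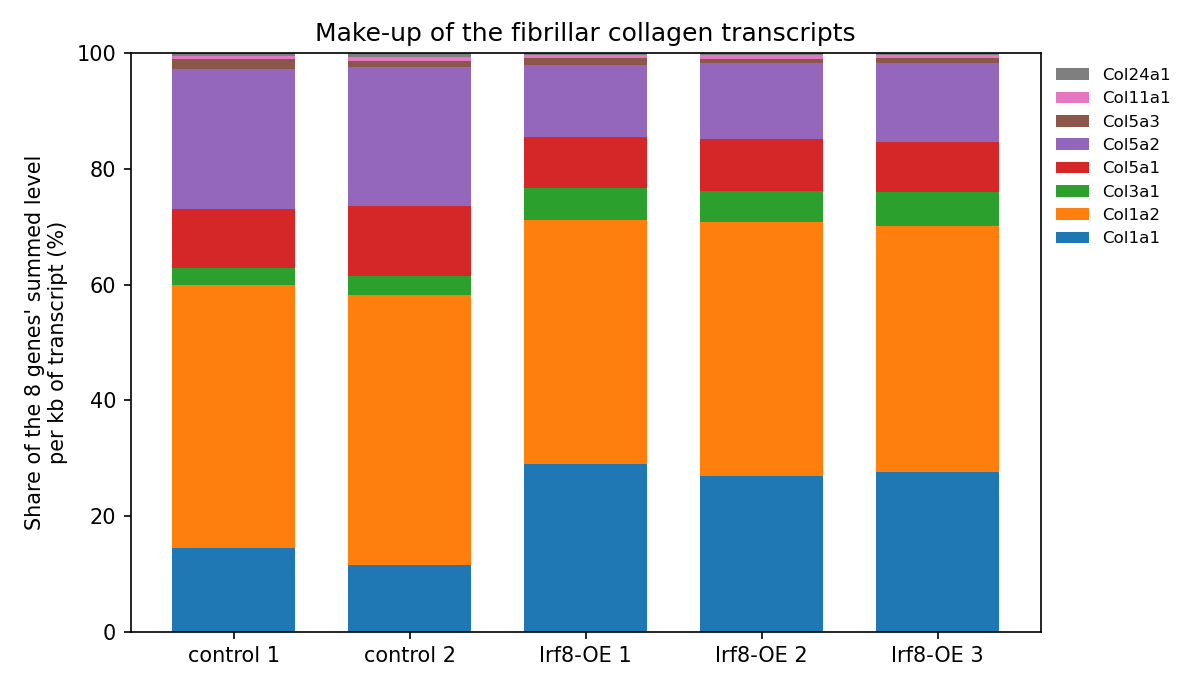
Share of each gene in the summed level of the 8 fibrillar collagen genes per kilobase of principal transcript (%), as stacked bars for the 2 control and 3 *Irf8*-OE samples. *Col1a1* grows from 14.5% and 11.6% in the controls to 26.9% to 29.1% in *Irf8*-OE, and *Col5a2* shrinks from 24.3% and 24.1% to 12.5% to 13.5%.

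Within the *Irf8*-OE group the first sample had the highest value in 7 of the 8 genes, and the third had it for *Col24a1*. The third sample had the lowest value in 5 of the 8 genes. Among the 797 listed genes above 0, the first sample was the highest in 39.9% and the third was the lowest in 35.8%. In the 454 of them with a mean of at least 50 normalized counts, the first sample was the highest in 46.0%. Over the 5 samples the members most alike were *Col1a2* and *Col5a1*, with a root mean square difference of 0.13 in centred log2(normalized counts + 1), followed by *Col1a1* and *Col3a1* at 0.19. These closest pairs were no partner chains of 1 trimer. Within a sample the 8 genes share 1 size factor and are not independent of each other.

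Transcription start regions were compared because genes that moved together may share sequence near their starts. RefSeq windows of GRCm38.p6, each 300 bases long and reaching 50 bases past the start, matched 6 of the 8 genes, all but *Col1a1* and *Col5a2*. The motifs searched on both strands were the CCAAT box, the TATA box in the form TATAAA, the GC box in the form GGGCGG, the core of an interferon-stimulated response element (GAAA on both sides of any 2 bases) and an ETS-IRF composite element (any 2 bases with GGAA before and GAAA after them), a kind of site that IRF8 is known to bind with a partner. Matches to the last 2 can overlap. The last 150 bases before the start are printed for *Col1a2* (chr6:4505468-4505617), *Col3a1* (chr1:45311388-45311537) and *Col5a1* (chr2:27886275-27886424), all on the plus strand, as the more abundant genes with a window, with any motif in capitals.
Col1a2: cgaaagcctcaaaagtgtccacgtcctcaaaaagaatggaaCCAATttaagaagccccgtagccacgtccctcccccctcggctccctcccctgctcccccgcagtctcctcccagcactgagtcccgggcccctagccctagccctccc
Col3a1: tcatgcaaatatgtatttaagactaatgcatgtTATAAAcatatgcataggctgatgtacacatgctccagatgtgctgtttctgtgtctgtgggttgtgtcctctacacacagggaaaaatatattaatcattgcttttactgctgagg
Col5a1: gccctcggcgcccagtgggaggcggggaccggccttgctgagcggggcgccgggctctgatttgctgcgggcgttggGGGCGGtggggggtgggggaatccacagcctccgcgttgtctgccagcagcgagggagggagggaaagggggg
The GC content of the 3 stretches was 62.7%, 37.3% and 74.7%. The RefSeq start of *Col1a2* lies inside the gene as the authors' table bounds it. Over the whole windows, CCAAT was found in *Col1a2*, *Col5a3* and *Col11a1*, which is 3 of 6 genes against 37.4% of all 32851 windows. GGGCGG was found in *Col1a2*, *Col5a1*, *Col5a3* and *Col11a1*, against 35.7% of all windows, and TATAAA in *Col3a1* alone, against 13.6%. The TATAAA match in the printed stretch of *Col3a1* is at -117 bases from the start, and whether it acts as a TATA box was not tested. Neither the response element nor the composite element was found in any of the 6 windows, and they occur in 3.44% and 2.72% of all windows. No match says only that these letters are not in these windows.

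Genes of collagen processing, fibrils, receptors, degradation and TGF-β were taken from 6 lists, many members of which are not listed in the table. Their counts stand against the 58.1% of listed genes called higher and the 41% called lower. Of 23 genes for chain modification, folding and export, 4 are listed and all 4 were called higher. *Serpinh1*, the collagen chaperone HSP47, had 1407, 1340 and 1219 normalized counts in *Irf8*-OE and 492 and 600 in the controls (log2 fold change 1.28, standard error 0.11). *Fkbp10*, a prolyl isomerase that acts on collagen in the endoplasmic reticulum, had a log2 fold change of 1.06, *P3h4*, a partner of a lysyl hydroxylase complex, one of 1.04, and *Fkbp7*, another isomerase of the same family, one of 1.11. The other 19 genes of this list, among them the prolyl 4-hydroxylase subunits, are not listed and were not analysed here.

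Of 15 genes for propeptide removal and cross-linking, 5 are listed and all were called higher. *Lox*, lysyl oxidase, was the most abundant of them, with 2639, 3258 and 3786 normalized counts in *Irf8*-OE and 1652 and 1405 in the controls (log2 fold change 1.07, standard error 0.15). *Loxl1* had a log2 fold change of 1.72 and *Loxl2* the largest of the list, 2.63 (standard error 0.21). *Adamts2*, which cuts the amino-terminal propeptide of fibrillar procollagens, had a log2 fold change of 1.73, and *Pcolce*, which enhances removal of the other propeptide, one of 1.38.

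Of 18 fibril-associated genes, 6 are listed and all were called higher. *Sparc*, a collagen-binding matrix protein, had 3037, 3021 and 3028 normalized counts in *Irf8*-OE and 977 and 1047 in the controls (log2 fold change 1.58, standard error 0.06). *Col12a1*, which encodes a collagen that binds to fibril surfaces, had one of 1.21, and *Thbs2* one of 1.58. *Postn*, *Ogn* and *Fmod* make up the rest, with log2 fold changes of 3.16, 3.02 and 2.07.

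Collagen receptors and collagen-degrading proteases were called in both directions. Of 10 receptor genes 5 are listed, 4 higher and 1 lower. *Mrc2*, an endocytic receptor for collagen, had 355, 316 and 295 normalized counts in *Irf8*-OE and 146 and 145 in the controls (log2 fold change 1.14). *Ddr1*, a receptor tyrosine kinase for collagen, had one of 1.07, *Itga11*, an integrin subunit for fibrillar collagen on fibroblasts, one of 2.42, and *Gp6*, the collagen receptor of platelets, one of 3.27 (standard error 0.64). *Itga2*, a collagen-binding integrin subunit, was the lower one, with 13.4 to 23.3 normalized counts in *Irf8*-OE and 60.7 and 50.9 in the controls. Of 7 proteases 3 are listed. *Mmp14* and *Mmp2* were higher, with log2 fold changes of 1.08 and 1.59, and *Mmp9* was lower, at -1.97.

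TGF-β is a known inducer of fibrillar collagen genes, and 5 of 18 genes of that pathway are listed. *Ltbp1*, which binds latent TGF-β, had a log2 fold change of 1.90, *Smad3*, a signal transducer, one of 1.49, *Tgfbi*, a secreted protein induced by TGF-β, one of 1.42, and the co-receptor *Tgfbr3* one of 1.23. The type I receptor *Tgfbr1* was lower in *Irf8*-OE, with 2113, 2615 and 2639 normalized counts against 5083 and 5062, a log2 fold change of -1.05 (standard error 0.10). The ligands *Tgfb1*, *Tgfb2* and *Tgfb3* are not listed and were not analysed here.

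**Figure D5:**
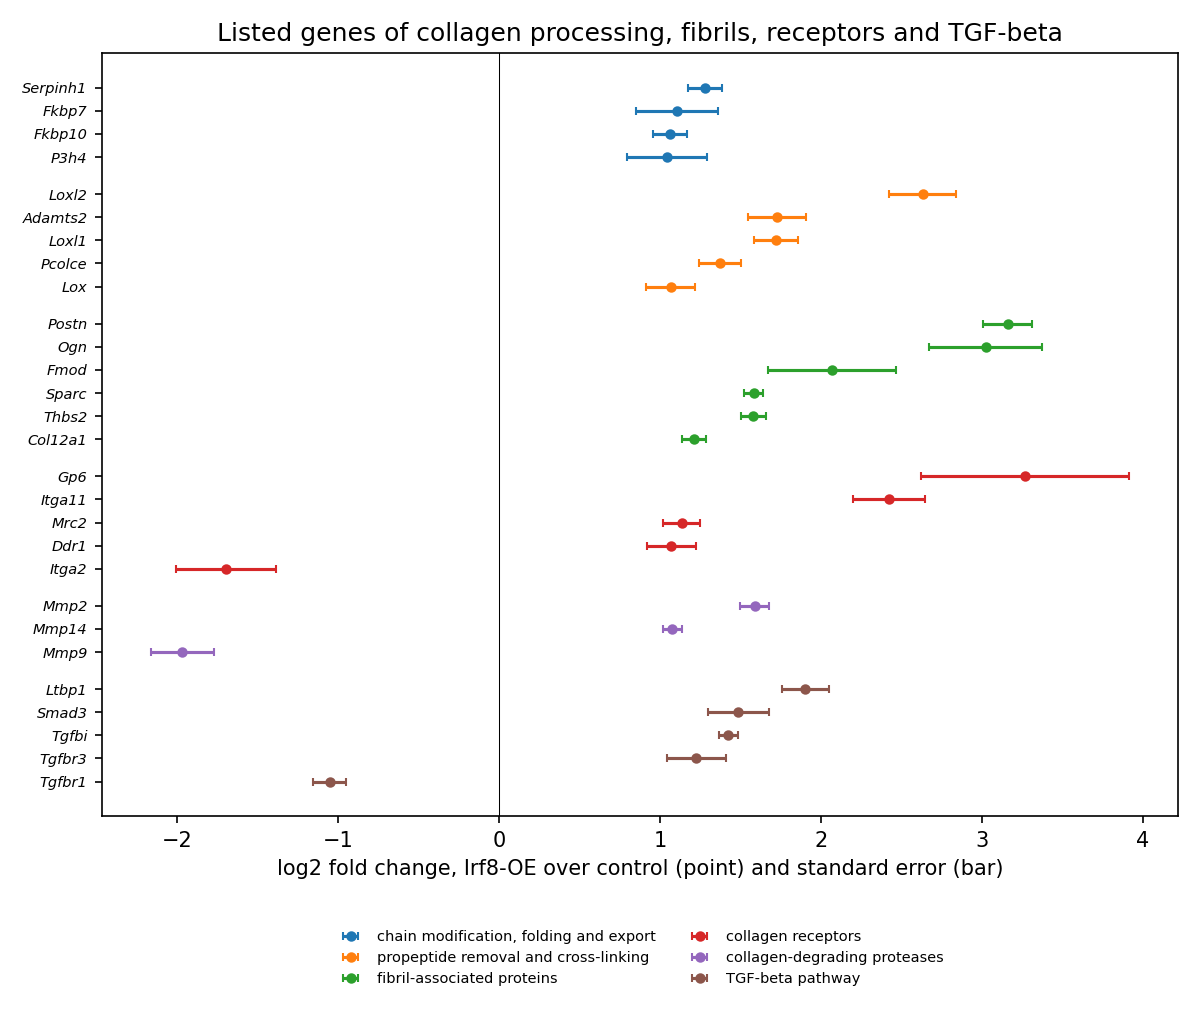
Log2 fold changes (points) and standard errors (bars) of the listed genes of 6 lists on collagen processing, fibrils, receptors, degradation and TGF-β, with *Irf8*-OE over control on the horizontal axis. All listed genes of the first 3 lists lie to the right of 0, and *Itga2*, *Mmp9* and *Tgfbr1* lie to the left.

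Markers of other cells also differed between the groups, in both directions, and their counts stand against the 58.1% of listed genes called higher and the 41% called lower. Of 22 markers of fibroblasts and marrow stromal cells 9 are listed, 8 higher and 1 lower, and their summed level was 3517 to 3646 normalized counts in *Irf8*-OE and 1700 and 1726 in the controls. *Acta2* and *Fbn1* had log2 fold changes of 1.37 and 1.82, *Cxcl12* of 2.32, and *Lepr*, a marker of marrow stromal cells, was lower at -1.66. Of 9 osteoblast markers *Sp7* and *Alpl* are listed, both higher, with a summed level of 206 to 244 against 52.8 and 67.2 normalized counts. Of 6 chondrocyte markers none is listed. Of 10 mast cell and basophil markers 9 are listed, 2 higher and 7 lower, and their summed level was 35749 to 39516 in *Irf8*-OE and 230513 to 234955 in the controls. *Cpa3* alone held 175134 and 179473 of the control sums. The higher ones were *Mcpt8* and *Prss34*, proteases of basophils, with log2 fold changes of 2.79 and 3.64. Macrophage markers summed to 20844 to 24941 against 4293 and 4431 with 5 of 9 listed. Endothelial markers summed to 839 to 879 against 2570 and 2662 with *Pecam1* the 1 of 6 listed. B cell markers summed to 410 to 439 against 37.1 and 40.3 with 4 of 7 listed. *Jchain* alone held 278, 331 and 320 of the B cell sums in *Irf8*-OE, and 0 and 3.84 in the controls. The other listed B cell markers, *Cd79a*, *Cd79b* and *Ebf1*, had log2 fold changes of 1.99, 1.38 and 1.55. The part of these cells in the collagen values was not tested, and in bulk RNA more cells of a type and more RNA per cell cannot be told apart.

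The listed genes whose levels over the 5 samples were most like those of each collagen gene were found among 830 listed genes that are no collagens and had a mean of at least 50 normalized counts. Likeness was the root mean square difference of log2(normalized counts + 1) after each gene was centred on its own mean. *Eya2* and *Tnn*, the gene of tenascin N, were nearest to *Col1a1* (0.11 and 0.14). *Fcrls* and *Nt5e* were nearest to *Col1a2* (0.03 and 0.05), *Rtp4* and *Tcaf2* to *Col3a1* (both 0.06) and *Loxl1* and *Irf7* to *Col5a1* (0.05 and 0.08). *Col5a2* was nearest to *Btg2* (0.0031) and *Mgl2* (0.03), *Col5a3* to *Svep1* (0.10) and *Tspan9* (0.20), *Col11a1* to *Saa3* (0.16) and *Fut10* (0.17), and *Col24a1* to *Pmepa1* and *Chst3* (both 0.08). Genes of a sample share its size factor, and each profile includes the difference between the groups, so these are descriptions of this table only.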

How the data were processed

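Per the labels and the study's methods, poly-A RNA of 3 *Irf8*-OE and 2 control BMDC samples was sequenced as paired ends. The submitters' processing notes name fastp, HISAT2 2.0.5, featureCounts 1.5.0-p3, DESeq2 1.20.0, edgeR 3.22.5 and mm10, without their roles. The authors deposited normalized counts (the signal used here) for 1355 genes past their thresholds (FDR under 0.05, log2 fold change beyond 1 in either direction). The authors' deposited log2 fold changes, p-values and group means were not used. Gene lengths are as in the authors' table.

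Steps were found per sample; 100% of values were whole reads within 1e-06 of a read. Limma 3.58.1, run in R 4.3.3 with trended empirical Bayes, was fitted to log2(normalized counts + 1) of all listed genes, without covariates. The tests were tried on simulated data. Alternatives were quantile normalization, pseudocounts of 0.1 and 10, a filter of 10 normalized counts, and edgeR 4.0.16 and DESeq2 1.42.0 on recovered reads. Others were a log2 fold change above 2, dropping single samples, and a block for the replicate number. The block used only samples whose number occurs in both groups. Reads without the third *Irf8*-OE sample, whose step is near 1, and the lengths of the authors' table were alternatives chosen after the values were seen. The members and lists were chosen with earlier results of these data known. Named genes are the 8 members, up to 3 listed genes per list by abundance or all where few are counted, and the 2 most similar genes per member. Marker genes named outside this rule were chosen after their values were seen. Of the listed genes 1354 are in GENCODE vM21 and 1313 have the same start and end there. With 3 samples against 2, an exact permutation test cannot reach 0.05, and none was run.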

Additional observations from a re-analysis of the deposited data

How the results depend on the processing

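All 8 fibrillar collagen genes stayed above 0 under each alternative run. In the runs with a log2 fold change threshold of 1, 117 of their values stayed past the thresholds. The 3 that did not were all of *Col24a1*, with log2 fold changes of 0.61 after quantile normalization, 0.91 with a pseudocount of 10 and 1.16 by DESeq2 when the third *Irf8*-OE sample was dropped. The count of 117 includes both runs with a block, whose log2 fold changes repeat those of runs without 1 *Irf8*-OE sample. Quantile normalization moved the median of all listed genes from 1.14 to 0.79 and that of the 8 genes to 1.59, and a pseudocount of 10 moved the latter to 1.63. Quantile normalization also moved the log2 difference in ratio to 0.43 for *Col5a1* to *Col5a2* and 0.16 for *Col11a1* to *Col5a2*. It was then -0.61 for *Col5a3* to *Col5a1* and -0.59 for *Col3a1* to *Col1a1*. With a pseudocount of 10, the log2 difference in ratio was 0.44 for *Col11a1* to *Col5a2* and -0.42 for *Col5a3* to *Col5a1*. An absolute log2 fold change of 2 left 518 listed genes and 2 of the 8, *Col1a1* and *Col3a1*. When single samples were left out, the median of the 8 genes lay between 1.74 and 1.91, and the log2 difference in ratio between 1.02 and 1.37 (*Col1a1* to *Col1a2*), 0.42 and 0.69 (*Col5a1* to *Col5a2*), -0.77 and 0.32 (*Col5a3* to *Col5a1*), 0.46 and 1.12 (*Col11a1* to *Col5a2*) and -0.47 and -0.060 (*Col3a1* to *Col1a1*). The cause of these shifts was not tested. EdgeR on recovered reads called 1353 listed genes and DESeq2 1354, and without the third *Irf8*-OE sample 1322 and 1304.

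The samples share only numbers. With the replicate number of the titles as a block, 1319 listed genes and 8 of the 8 were called, and with that of the descriptions 1271 and 8. Each block kept only the samples whose number occurs in both groups, 2 against 2. The titles left out the third *Irf8*-OE sample and the descriptions the first. The log2 fold changes of the 8 genes were therefore those without that sample, and the blocks are no separate check of them. Same-numbered samples did not deviate together, with correlations of 0.0277 and -0.0069 across genes over 2 pairs each. Low reads limit *Col5a3*, *Col11a1* and *Col24a1*, which had 13 to 38 reads in each control.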

Other observations

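Among the *Irf8*-OE samples, the cross-linking enzymes *Lox* and *Loxl2* stood in another order than most of the collagen genes. *Lox* had 2639, 3258 and 3786 normalized counts and *Loxl2* had 233, 329 and 375 in *Irf8*-OE samples 1, 2 and 3, so the first sample was the lowest for both, while it was the highest for 7 of the 8 fibrillar collagen genes. *Loxl1*, with 459, 390 and 381, was highest in the first sample. These 3 genes were compared after their values were seen, with 3 samples, and the differences in order were not tested.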
